A study of Mus musculus with 4 samples.

Results

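The T cells described here come from single-cell RNA libraries of whole mouse common bile ducts, with no sort named in the labels. Cells needed 500 or more genes with a UMI, a barcode that marks 1 captured RNA molecule, and no more than 25% of UMIs from mitochondrial genes to be kept. The T cells were then chosen by their measured counts of 8 genes. A kept cell was a T cell when at least 2 of 5 genes (Cd3e, Cd3d, Cd3g, Trac, Trbc2) had a UMI, at least 1 of them a Cd3 gene, with at most 3 UMIs of the epithelial gene Epcam and none of the B cell gene Cd79a or the macrophage gene Csf1r. The rule found 278 T cells among 19246 kept cells. The Prom1_BcatGOF library (GOF), a mosaic gain of function of beta-catenin (Ctnnb1), held 183 of them, and the 3 wild-type libraries (WT 1, WT 2 and WT 3) held 51, 28 and 16.

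The series compared 1 GOF library with 3 WT libraries of ducts under normal conditions, and the labels give no treatment, age, strain or sex, and no construct behind the GOF genotype. All libraries came from ducts digested with enzymes and run with 10x 3′ v3 chemistry. The GOF group is 1 library, so its spread could not be measured, and the labels do not say that the WT libraries came from separate animals. Every p-value therefore measures only the spread between these libraries, which may be technical.

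T cells recognise their targets through the T cell receptor, a pair of chains (alpha and beta, or gamma and delta) that signals through the CD3 subunits. For most alpha-beta receptors the targets are peptides held by major histocompatibility molecules. CD8 T cells kill infected or altered cells, CD4 T cells help other immune cells, and regulatory T cells, marked by the transcription factor Foxp3, restrain them. In the liver and biliary tree many T cells stay resident in the tissue, and gamma-delta and other IL-17-producing T cells are known from the bile ducts of mice.

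The GOF T cells summed to 561442 UMIs, against 113388, 40939 and 17237 UMIs in WT 1, WT 2 and WT 3. Their median was 2692 UMIs per T cell in GOF, against 1960, 1256 and 1055.5 UMIs in the WT libraries. The median mitochondrial share of a T cell was 2.93% in GOF, against 8.52%, 9.39% and 13.6% in the WT libraries. The GOF T cells were thus the deepest and had the lowest mitochondrial share. The file headers name Cell Ranger 7.0.0 for GOF and 3.0.2 for the WT libraries, so genotype and processing cannot be told apart in any value below. No T cell barcode occurred in more than 1 library.

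The label of the cells was set against 14 further T cell genes that the rule did not use, such as Cd2, Thy1, Lck and Bcl11b. Together they made up 7516 CPM, UMIs scaled to a total of 1000000, in the GOF T cells, against 6756, 4055 and 3771 CPM in the WT T cells. The same genes reached 152 CPM in GOF B cells, against 59.8 to 309 CPM in WT B cells, and 37.6 CPM in GOF epithelium, against 14.2 to 17.2 CPM in WT epithelium. They were much closer in cells classed as natural killer (NK) cells, of which GOF held 20 and the WT libraries 6, 6 and 1. Those cells had 3395 CPM in GOF, against 3878, 2781 and 3165 CPM in WT, so the genes set T cells apart from NK cells less clearly. In all 4 libraries 12 of the 14 were higher in T cells than in B cells and epithelium, and the remaining 2 had no UMI in WT 3. Of 7 B cell markers 4 had no UMI in the T cells of any library, among them Cd79a, which the rule itself kept at 0. The 7 together summed to 153 CPM in GOF T cells, against 115, 269 and 232 CPM in WT T cells.

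Some RNA of other cells was present in the T cells. The 7 epithelial markers summed to 743 CPM in GOF T cells, against 520, 2272 and 986 CPM in WT T cells, while the epithelial cells themselves held 16988 CPM in GOF and 11038 to 14166 CPM in WT. Pancreatic acinar genes summed to 5.34 CPM in GOF T cells, against 282, 73.3 and 1450 CPM in WT T cells. Neutrophil genes stood highest in 1 WT library, with 529 CPM in GOF, against 838, 4739 and 0 CPM in the WT T cells. Natural killer (NK) cell genes summed to 850 CPM in GOF T cells, against 2178, 1905 and 348 CPM in WT T cells. Genes of innate lymphoid cells summed to 1069 CPM in GOF T cells, against 194, 391 and 290 CPM in WT T cells. For this list GOF thus lay above every WT library. The same genes summed to 574 CPM in the NK class of GOF, against 0, 309 and 0 CPM in WT. In epithelium they summed to 412 CPM in GOF, against at most 55.9 CPM in WT. Whether innate lymphoid cells were among the cells chosen by the rule was not tested.

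The members near the edges of the rule show how the depth bears on it. Exactly 2 of the 5 genes were detected in 21 GOF T cells and in 13, 5 and 8 WT T cells, whereas all 5 were detected in 65 GOF T cells and in 15, 2 and 2 WT T cells. Just outside the rule, 63 GOF cells and 9, 13 and 16 WT cells had a UMI of 1 of the 5 genes only. Cells left out for over 3 Epcam UMIs numbered 19 in GOF, against 2, 1 and 0 in WT. Cells left out for under 500 genes numbered 2 in GOF, against 1, 9 and 23 in WT.

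T cells were 1.81% of kept cells in GOF (183 of 10101, 95% exact binomial interval 1.56 to 2.09%), against 1.12% in WT 1 (0.833 to 1.47%), 1.13% in WT 2 (0.752 to 1.63%) and 0.761% in WT 3 (0.435 to 1.23%). The GOF share lay above each WT share, and its interval overlapped that of WT 2. Intervals here cover counting error only, and 1 library against 3 cannot reach an exact one-sided permutation p under 0.25. Among kept cells with at most 10% mitochondrial UMIs the GOF share was 1.87%, against 1.91%, 2.20% and 0.761% in WT, so that GOF was no longer above WT 1 and WT 2. Among kept cells with at most 3 Epcam UMIs it was 3.59% in GOF, against 3.49%, 2.40% and 1.27% in WT.

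**Figure D1:**
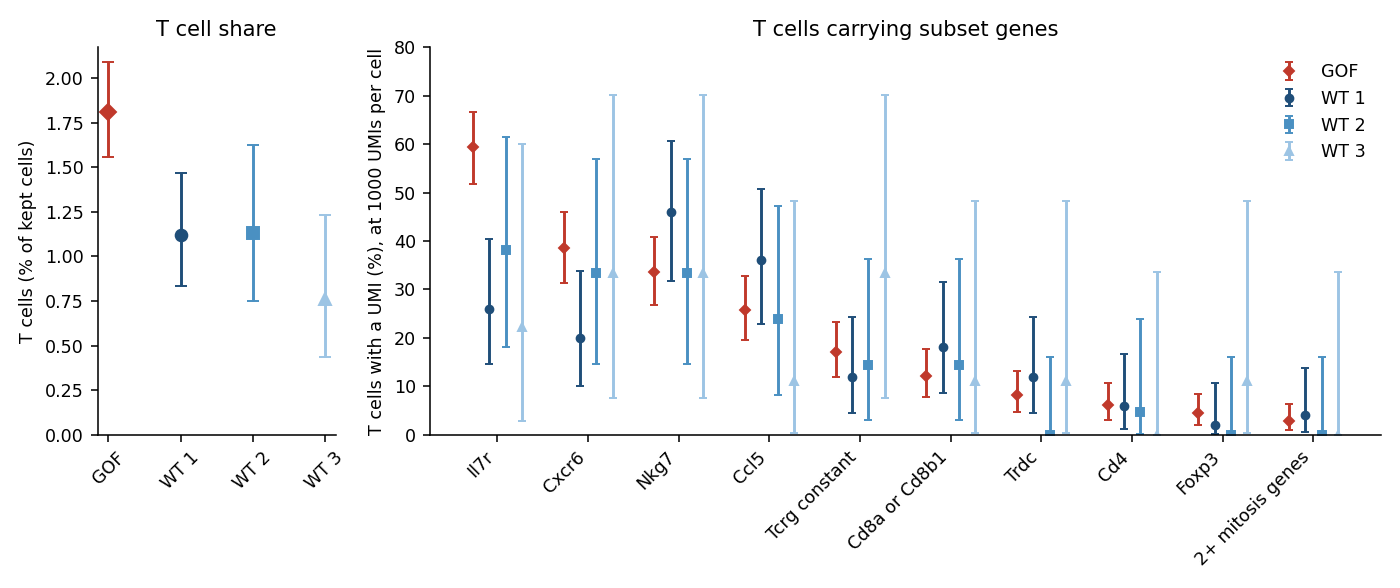
Left, T cells as a percentage of kept cells in each library. Right, T cells with at least 1 UMI of a gene (%) after each cell was thinned to 1000 UMIs. Points are libraries (1 GOF, 3 WT) and bars are 95% exact binomial intervals. GOF lies above the WT libraries for the T cell share (1.81%) and for Il7r (59.3%), and within the WT range for Cd8a or Cd8b1 (12.1%).

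To compare subset genes at equal depth, each T cell was thinned to 1000 UMIs, which kept 182 GOF T cells and 50, 21 and 9 WT T cells. The co-receptor genes Cd8a or Cd8b1 were detected in 12.1% of GOF T cells (interval 7.73 to 17.7%), against 18%, 14.3% and 11.1% of WT T cells. Cd4 was detected in 6.04% of GOF T cells, against 6%, 4.76% and 0% of WT T cells. Trdc, the constant segment of the delta receptor chain, was detected in 8.24% of GOF T cells, against 12%, 0% and 11.1% of WT T cells. Foxp3 was detected in 4.40% of GOF T cells, against 2%, 0% and 11.1% of WT T cells. For Cd8a or Cd8b1, Trdc and Foxp3 the GOF share lay inside the WT range, and for Cd4 it was level with the highest WT share. B cells showed no UMI of these genes in any library. With 45 GOF B cells and 84, 16 and 13 WT B cells at that depth, this still allows up to 6.67% in GOF and 3.57%, 18.8% and 23.1% in WT. In epithelium at that depth, Cd8a or Cd8b1 and Cd4 were each found in 1 of 4218 GOF cells and in no WT cell. Trdc and Foxp3 were found in no epithelial cell at that depth. With 9 T cells left in WT 3, a count of 0 among them still allows a share of up to 33.3%.

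Without thinning, Cd4 was detected in 19.1% of GOF T cells, against 9.80%, 3.57% and 6.25% of WT T cells. Cd8a or Cd8b1 was then detected in 17.5% of GOF T cells, against 17.6%, 17.9% and 6.25% of WT T cells. The unthinned values compare cells of unequal depth, and more than 1 in 2 T cells in each library had no UMI of Cd4, Cd8a, Cd8b1 or Trdc (99 of 183 in GOF, against 30 of 51, 22 of 28 and 13 of 16 in WT).

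Il7r and Ctla4 were detected in a larger share of GOF T cells than in any WT library at equal depth. Il7r, the receptor chain through which memory T cells receive the survival signal IL-7, was detected in 59.3% of GOF T cells (interval 51.8 to 66.5%), against 26%, 38.1% and 22.2% of WT T cells. Ctla4, an inhibitory receptor, was detected in 38.5% of GOF T cells, against 6%, 4.76% and 11.1% of WT T cells. Ctla4 was also found in 3 of 45 GOF B cells at that depth and in no WT B cell, and in 4 of 4218 GOF epithelial cells and no WT epithelial cell. Cxcr6, a chemokine receptor of resident T cells in liver, was detected in 38.5% of GOF T cells, against 20%, 33.3% and 33.3% of WT T cells. Nkg7, a protein of cytotoxic granules, was detected in 33.5% of GOF T cells, against 46%, 33.3% and 33.3% of WT T cells. Thus Il7r and Ctla4 lay above every WT library, though the intervals of WT 2 (18.1 to 61.6%) and WT 3 (2.81 to 60.0%) for Il7r and that of WT 3 for Ctla4 (0.281 to 48.2%) overlapped GOF, and Nkg7 lay within the WT range. At 1500 UMIs Cxcr6 was found in 42.1% of GOF T cells, against 35.1%, 50% and 0% of WT T cells, with 1 cell left in WT 3, so that GOF was within the WT range there.

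The receptor genes themselves are a description, because the rule used them. On the summed counts, Cd3e (ENSMUSG00000032093, GRCm38 chr9:44998740-45009627, minus strand) had 422 CPM in GOF, against 326, 366 and 232 CPM in WT. Cd3d (chr9:44981786-44987339, plus strand) had 826 CPM in GOF, against 1385, 1319 and 1682 CPM in WT. Cd3g (chr9:44969572-44980431, minus strand) had 1090 CPM in GOF, against 1561, 1075 and 1392 CPM in WT. These subunits carry the receptor's signal into the cell and lie next to each other on chromosome 9. Trac, the constant segment of the alpha chain (chr14:54220521-54224206, plus strand), had 381 CPM in GOF, against 485, 293 and 348 CPM in WT. Trbc2, a constant segment of the beta chain (chr6:41546730-41548352, plus strand), had 1145 CPM in GOF, against 2108, 2272 and 1856 CPM in WT. GOF was thus lowest for Cd3d and Trbc2 and highest for Cd3e. Trbc1 and Trbc2 are near-identical copies, and the handling of reads they share was not given in the sources used here, so their split is uncertain.

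The targeted gene was sparse in T cells. Ctnnb1 had 53 UMIs (94.4 CPM) in GOF T cells, against 6, 4 and 2 UMIs (52.9, 97.7 and 116 CPM) in WT T cells, which was too low for the filter of the test. Prom1, named in the genotype, had 5 UMIs in GOF T cells and none in WT T cells. A 3′ count does not show which Ctnnb1 allele a cell carried, so these values check no label. Axin2, a common target of beta-catenin signalling, had 10 UMIs in GOF T cells, against 1, 0 and 0 in WT T cells. In epithelium the Axin2 level was 113 CPM in GOF, against 3.10, 6.79 and 6.12 CPM in WT.

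GOF and WT T cells were compared on the UMIs summed per library with edgeR's quasi-likelihood test, Benjamini-Hochberg adjusted over all genes tested. Of 2108 genes, 351 rose in GOF T cells (16.7%) and 78 fell (3.70%). The median log2 fold change over all genes was -0.01. The count depended on the tool, since DESeq2 called 24 genes higher and 15 lower and limma-voom 449 higher and 190 lower. Of the 351 rises, 350 had a GOF level outside the WT range, which held for 67 of the 78 falls. Over all tested genes GOF was above all WT libraries for 34.5% and below all of them for 27.1%. The filter kept a gene that was high enough in a single library, so some genes were tested only because GOF was high. Such genes could be higher in GOF but not lower, and 20 of the 351 rises had no WT UMI. Among those named below are Il23r, Zbtb16, Nr4a3, Il12rb2, Znrf3 and Bach2. The counts of rises in gene lists, and the shares over all genes, are in part set by this filter.

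The rises lay mostly in genes with long introns. Of the 351 genes, 270 have over 50 kb of summed intron in the GENCODE M21 annotation, and 28 have at most 5 kb. The median log2 fold change was 2.54 for the 282 tested genes with over 100 kb of intron and 1.34 for the 255 genes with 50 to 100 kb. It was -0.45 for the 610 genes with at most 5 kb. Of all tested genes 66.0% rose in the class over 100 kb, 32.9% at 50 to 100 kb and 4.22 to 7.61% in the shorter classes. Epithelial cells of the same libraries showed the same order of medians for these genes, with 1.14, 0.33 and -0.39. Of the rises, 337 could be tested in epithelium and 184 of those were called higher there too. Of the falls, 77 could be tested in epithelium and 54 were called lower there. A fit on the genes with at most 5 kb of intron alone called 23 of 610 higher (3.77%) and 12 lower (1.97%). Whether intron length accounts for any single change was not tested, so the intron length is given for many of the genes described here.

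**Figure D2:**
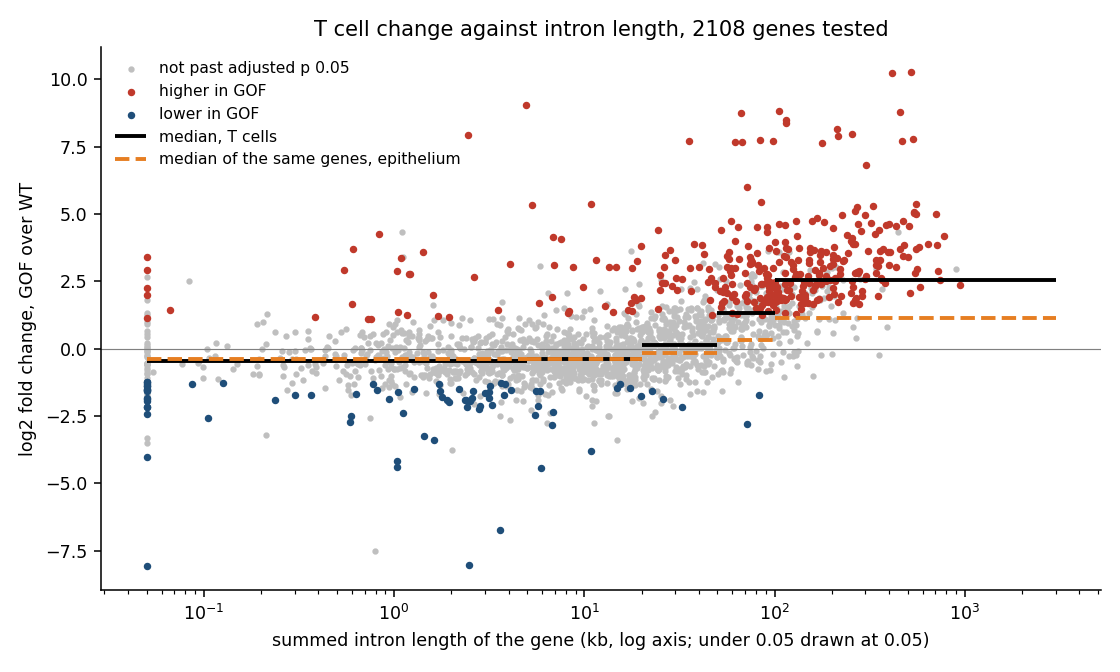
Each point is 1 of 2108 genes tested in T cells, by summed intron length (kb, log axis) and log2 fold change of GOF over WT. Red points rose and blue points fell at adjusted p under 0.05. Black lines are medians in T cells per intron class and orange lines are medians of the same genes in epithelium. Both lie below 0 for genes up to 20 kb and rise with length, to 2.54 in T cells and 1.14 in epithelium above 100 kb. Points above about 7 are genes with no WT UMI, whose height depends on the prior count of the fit.

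Genes that carry the receptor signal inside the cell differed within 1 pathway. Of 20 genes listed, 15 were tested, 7 rose (16.7% of all tested genes rose) and none fell, and their median log2 fold change was 1.39, against -0.01 over all genes. Themis, a regulator of receptor signal strength in developing T cells, had 422 CPM in GOF, against 52.9, 24.4 and 0 CPM in WT (log2 fold change 3.48, SE 0.620, adjusted p = 9.36e-07). Skap1, an adaptor that links the receptor to integrin adhesion, had 1740 CPM in GOF, against 423, 562 and 174 CPM in WT (log2 fold change 2.15, SE 0.462, adjusted p = 6.79e-05). Both genes have long introns, 204 kb for Themis and 287 kb for Skap1. Among cells with at most 10% mitochondrial UMIs the Skap1 fold change was 2.32 and no longer called (adjusted p = 0.144).

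Other genes of the same pathway were not called. Lck, the kinase that starts receptor signalling (22.4 kb of intron), had 321 CPM in GOF, against 591, 489 and 580 CPM in WT (log2 fold change -0.69, adjusted p = 0.350). Lat, the membrane scaffold on which the signal assembles (2.98 kb), had 342 CPM in GOF, against 635, 366 and 464 CPM in WT (adjusted p = 0.554). Both thus stood below all WT libraries without passing the test. Other rises of the list were Prkcq, Fyb, Ptpn22 and Cd5. Of these, Prkcq was lost without WT 1 or WT 2 (adjusted p = 0.113 each), and Cd5 without WT 1 (adjusted p = 0.349) or WT 2 (adjusted p = 0.385). Fyb and Ptpn22 were lost without WT 2 (adjusted p = 0.0647 for Fyb and 0.180 for Ptpn22).

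No gene of the receptor complex outside the rule passed the test. Of 11 listed genes, among them Cd247, Trbc1, Trdc, Cd4, Cd8a and Cd8b1, 7 were tested and none was called by edgeR, DESeq2 or limma-voom, although 2 had an unadjusted edgeR p under 0.05. Their median log2 fold change was -0.47. Cd247, the zeta subunit (83.3 kb of intron), had 280 CPM in GOF, against 150, 97.7 and 174 CPM in WT (adjusted p = 0.138). Trdc (chr14:54142851-54148868, plus strand) had 173 CPM in GOF, against 758, 0 and 116 CPM in WT (adjusted p = 0.0982). The Trdc level in GOF thus lay inside the WT range. Without WT 3, Trdc (log2 fold change -1.36, adjusted p = 0.0455) and Cd8a (-1.42, adjusted p = 0.0358) were called lower.

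Icos, Ctla4 and Tox, co-stimulatory and inhibitory genes, rose in GOF T cells. Icos, a co-stimulatory receptor of activated T cells (chr1:60977927-61000320, 19.0 kb of intron), had 782 CPM in GOF, against 88.2, 122 and 0 CPM in WT. It rose by a log2 fold change of 3.25 (SE 0.512, adjusted p = 1.69e-08) and had no UMI in B cells of any library. Ctla4 (chr1:60887000-60915832, 26.5 kb) had 914 CPM in GOF, against 88.2, 97.7 and 58.0 CPM in WT. Its log2 fold change was 3.46 (SE 0.514, adjusted p = 1.80e-09). For both genes the GOF level stood more than 6 times above the highest WT level, and DESeq2 called them too (adjusted p = 0.0339 for Icos and 0.00810 for Ctla4). Ctla4 also reached 143 CPM in GOF B cells, against 2.88, 0 and 0 CPM in WT B cells. Without thinning it was found in 30 of 4228 GOF epithelial cells (0.710%) and in no WT epithelial cell. The list of inhibitory receptors had 3 tested members of 12, of which Ctla4 and Tox rose. Over all genes 16.7% rose, and 66.0% above 100 kb of intron, the class of Tox. Tox, a regulator of persistent stimulation (298 kb), had 661 CPM in GOF, against 132, 24.4 and 232 CPM in WT (log2 fold change 2.60, SE 0.496, adjusted p = 5.37e-06).

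Genes of recent activation rose in part, and most of those listed have short introns. Of 23 immediate early genes 14 were tested, 5 rose and none fell, with a median log2 fold change of 1.24, against 16.7% rises over all genes. Of the 11 tested members with at most 5 kb of intron, 3 were called in the fit on all tested genes. Btg2, an antiproliferative early gene (1.21 kb), had 595 CPM in GOF, against 115, 0 and 174 CPM in WT (log2 fold change 2.79, SE 0.516, adjusted p = 2.26e-06). Fos, part of the AP-1 transcription factor (1.03 kb), had 401 CPM in GOF, against 17.6, 171 and 0 CPM in WT (log2 fold change 2.88, SE 0.600, adjusted p = 3.83e-05). Both were above every WT library and were called without any 1 WT library. Both also stood above every WT library in epithelium, where Fos had 3366 CPM in GOF, against 338, 641 and 1098 CPM in WT. Junb also rose, with 1585 CPM in GOF, against 467, 757 and 1218 CPM in WT (adjusted p = 0.0480), and the call was lost without WT 1 (adjusted p = 0.116) or WT 2 (adjusted p = 0.380). Dusp1 was lost without WT 1 (adjusted p = 0.346). Nr4a3, an early nuclear receptor (35.3 kb), had 78 UMIs in GOF T cells and none in WT T cells, at least 7.95-fold higher against 3 counts over the WT group (adjusted p = 0.0130). Without WT 1 Nr4a3 was too low to be tested. Tissue dissociation is known to induce such genes, and its part was not tested.

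Tnfaip3, which encodes A20, an enzyme that shuts down NF-kB signalling after activation, rose in GOF T cells (7.52 kb of intron). It had 381 CPM in GOF, against 26.5, 0 and 58.0 CPM in WT, and was found in 108 of 183 GOF T cells, against 3, 0 and 1 WT T cells. The log2 fold change was 4.07 (SE 0.691, adjusted p = 2.41e-07), and the call held without any 1 WT library but not by DESeq2 (adjusted p = 0.121). In epithelium Tnfaip3 had 9.12 CPM in GOF, against 16.7, 13.1 and 5.10 CPM in WT. Its promoter is printed because A20 is itself induced by NF-kB in a feedback loop. The sequence is the 250 bases before and 50 after the annotated start of Tnfaip3, from RefSeq on GRCm38.p6, chr10:19015361-19015660, minus strand, with matches to NF-kB motifs in capitals.
Tnfaip3 promoter: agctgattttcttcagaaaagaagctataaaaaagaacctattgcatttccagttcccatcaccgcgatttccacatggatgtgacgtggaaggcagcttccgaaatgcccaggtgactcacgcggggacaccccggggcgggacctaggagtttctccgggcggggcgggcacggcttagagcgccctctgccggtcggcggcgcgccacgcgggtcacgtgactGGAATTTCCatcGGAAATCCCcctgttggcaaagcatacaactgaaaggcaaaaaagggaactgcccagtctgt
Capitals mark GGAATTTCC, and GGAAATCCC, which is the other strand's match to GGGATTTCC. Both strands were searched, the matches do not overlap, and the motif letters were chosen after the sequence was seen. Of 32851 promoters of this length, 0.323% hold GGGATTTCC and 0.317% hold GGAATTTCC. A second annotated start of Tnfaip3 (chr10:19011914-19012213) has no match in its window. A match describes letters and does not show that a factor was bound.

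Memory and residency genes rose in part. Of 13 genes of naive and central memory cells 9 were tested, 6 rose and none fell, with a median log2 fold change of 2.18, against 16.7% rises over all genes and 66.0% in the class over 100 kb. Il7r (chr15:9505788-9530176, 19.7 kb) had 1250 CPM in GOF, against 335, 269 and 580 CPM in WT. Its log2 fold change was 1.88 (SE 0.478, adjusted p = 0.00109), and the call was lost without WT 2 (adjusted p = 0.138). It was detected in 138 of 183 GOF T cells, against 17, 9 and 6 WT T cells, and in no B cell. Lef1, a partner of beta-catenin at Wnt target genes (105 kb), had 264 CPM in GOF, against 26.5, 24.4 and 58.0 CPM in WT (log2 fold change 3.21, SE 0.686, adjusted p = 6.60e-05), and was lost without WT 1 (adjusted p = 0.179). Bach2, a repressor that keeps T cells quiescent (337 kb), had 124 UMIs in GOF T cells, against 2, 0 and 0 UMIs in WT T cells, a ratio of 18.9 (exact counting interval 5.14 to 158). Foxp1 and Satb1 also rose, and were lost without WT 2 (adjusted p = 0.0732 for Foxp1) and without WT 1 (adjusted p = 0.211 for Satb1). The sixth rise, Igfbp4, rested on 1 GOF cell with 63 of its 86 UMIs.

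Of 14 genes of tissue residency 9 were tested, 5 rose and none fell, with a median log2 fold change of 1.61, against 16.7% rises over all genes. Cd69, a receptor that holds T cells in tissue (1.60 kb), had 233 CPM in GOF, against 44.1, 48.9 and 174 CPM in WT (log2 fold change 2.00, SE 0.610, adjusted p = 0.00848). Rgs1, a brake on chemokine signalling, with 0 kb of intron once its annotated transcripts are merged, had 381 CPM in GOF, against 97.0, 73.3 and 174 CPM in WT (log2 fold change 1.99, SE 0.547, adjusted p = 0.00289). For both, GOF was above every WT library, and both calls were lost without WT 2 (adjusted p = 0.135 for Cd69 and 0.110 for Rgs1). Rgs2 was lost without WT 1 (adjusted p = 0.423), Cd44 without WT 1 (adjusted p = 0.423) or WT 2 (adjusted p = 0.161), and P2rx7 and Cd69 were too low to be tested without WT 1. Cxcr6 itself was close in level, with 518 CPM in GOF, against 459, 660 and 348 CPM in WT (log2 fold change 0.14, SE 0.479, adjusted p = 0.874). Among cells with at most 10% mitochondrial UMIs neither was called, at log2 fold changes of 1.88 for Cd69 (adjusted p = 0.0788) and 1.94 for Rgs1 (adjusted p = 0.0626). None of the 4 tested chemokine receptors of 16 listed was called by edgeR, DESeq2 or limma-voom, and none had an unadjusted edgeR p under 0.05.

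Cytokine receptors rose in 5 of 9 tested members of 18, with a median log2 fold change of 1.88 and no fall, against 16.7% rises over all genes. Besides Il7r these were Tgfbr2, Il18r1, Il12rb2 and Il2ra. Il18r1, a receptor for the inflammatory cytokine IL-18 (30.5 kb), had 529 CPM in GOF, against 88.2, 24.4 and 232 CPM in WT (log2 fold change 2.64, SE 0.534, adjusted p = 2.16e-05). Tgfbr2, a receptor for TGF-beta (82.9 kb), had 303 CPM in GOF, against 26.5, 48.9 and 116 CPM in WT (adjusted p = 0.000121), and was lost without WT 1 (adjusted p = 0.156). Il12rb2 had 77 UMIs in GOF T cells and 1 UMI over all WT T cells, a ratio of 23.5 (exact counting interval 4.10 to 941), and like Il2ra it was too low to be tested without WT 1. Of 13 integrin and adhesion genes 8 were tested, and Cd226, Cd44 and Itga4 rose, against 16.7% over all genes. Cd226 was lost without WT 1 (adjusted p = 0.0516), and Itga4 was lost without any 1 of the WT libraries (adjusted p = 0.0790 to 0.244).

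No cytotoxic gene rose, and Ccl5 and Ccl4 fell. Of 17 genes 10 were tested, none rose and 2 fell by edgeR, against 3.70% falls over all genes, with a median log2 fold change of -1.12 and a median intron length of 4.75 kb. Ccl5, a chemokine that effector and memory CD8 T cells and NK cells secrete (chr11:83525778-83530518, minus strand, 3.78 kb), had 1756 CPM in GOF, against 8881, 7646 and 1566 CPM in WT. Its log2 fold change was -1.73 (SE 0.487, adjusted p = 0.00392), but the GOF level lay inside the WT range. The call was lost without WT 2 (adjusted p = 0.297), by DESeq2 (adjusted p = 0.337) and in the fit on short-intron genes (adjusted p = 0.329). Ccl5 was detected in 52 of 183 GOF T cells, against 19, 7 and 1 WT T cells. Ccl4 also fell, with 81.9 CPM in GOF, against 1976, 48.9 and 0 CPM in WT (adjusted p = 1.99e-06), and 140 of the 224 WT 1 UMIs came from 1 cell. Ccl4 was too low to be tested without WT 1. Among cells with at most 10% mitochondrial UMIs neither was called, at log2 fold changes of -1.46 for Ccl5 (adjusted p = 0.591) and -3.38 for Ccl4 (adjusted p = 0.0694).

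Granule genes did not pass the test. Nkg7 had 636 CPM in GOF, against 1755, 904 and 290 CPM in WT (log2 fold change -0.67, adjusted p = 0.374, but 0.06 without WT 1). Gzma, a granule protease, had 166 CPM in GOF, against 132, 684 and 0 CPM in WT (log2 fold change -0.70, adjusted p = 0.389, but 0.65 without WT 2), and 49 of its 93 GOF UMIs came from 1 cell. Ncr1, a defining receptor of NK cells, had 3 UMIs in GOF T cells, against 17, 8 and 0 UMIs in WT T cells, so GOF lay inside the WT range. Its ratio of GOF to all WT T cells was 0.0367 (exact counting interval 0.00709 to 0.120). In the NK class Ccl5 reached 4074 CPM in GOF, against 36587 to 44304 CPM in WT. That class held 20 cells in GOF but only 6, 6 and 1 in the WT libraries. Of 15 receptors of NK type 4 were tested, and Ncr1 and Tyrobp fell, against 3.7% falls over all genes. The call of Ncr1 was lost without WT 2 (adjusted p = 0.0879). The part of NK cells in the fall of Ccl5 was not tested.

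**Figure D3:**
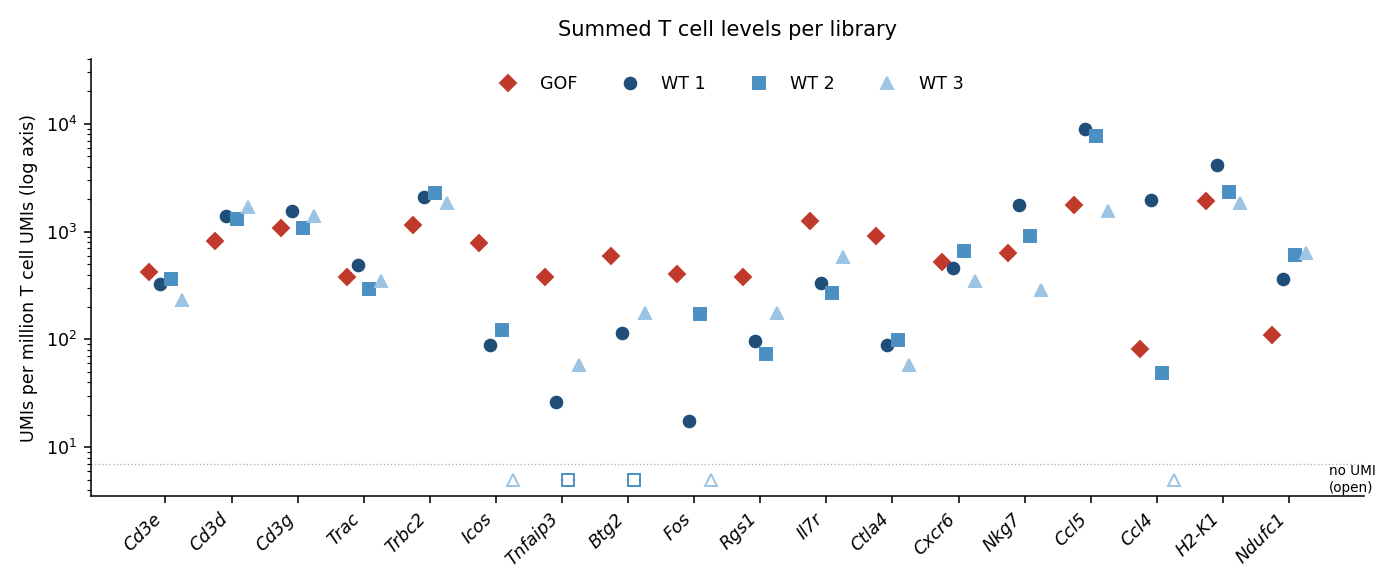
Summed level of 18 genes in T cells of each library, in CPM of the T cell UMIs (log axis), with red diamonds for GOF and blue symbols for the 3 WT libraries. Open symbols have no UMI. The GOF level lies above every WT library for Icos, Tnfaip3, Btg2, Fos, Rgs1, Il7r and Ctla4, inside the WT range for Cd3g, Trac, Cxcr6, Nkg7, Ccl5, Ccl4 and H2-K1, and below every WT library for Cd3d, Trbc2 and Ndufc1.

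Part of the regulatory T cell genes rose, while Foxp3 was too low to be tested. Foxp3 had 33 UMIs in GOF (58.8 CPM), against 3, 1 and 2 UMIs (26.5, 24.4 and 116 CPM) in WT. Of 12 listed genes 8 were tested and Ctla4, Il2ra, Tnfrsf9 and Ikzf2 rose, against 16.7% of all genes, and the median log2 fold change of the 8 was 1.02. Ikzf2, a transcription factor of stable regulatory cells (144 kb), had 623 CPM in GOF, against 150, 220 and 116 CPM in WT (log2 fold change 1.99, SE 0.480, adjusted p = 0.000497), and among cells with at most 10% mitochondrial UMIs the fold change was 1.90 and not called (adjusted p = 0.110). Il2ra, the high-affinity chain of the IL-2 receptor (44.7 kb), had 182 CPM in GOF, against 44.1, 0 and 58.0 CPM in WT (adjusted p = 0.0187), and was lost without WT 2 (adjusted p = 0.103). Tnfrsf9 was lost without WT 1 (adjusted p = 0.341). In GOF, 83 T cells carried Ikzf2 and 92 carried Ctla4, so most cells with either gene had no Foxp3 UMI.

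The type 17 list had 2 rises among 7 tested genes of 15 and no fall, against 16.7% rises over all genes, 32.9% at 50 to 100 kb of intron and 66.0% above 100 kb. Il23r, the receptor for IL-23 that maintains IL-17-producing cells (chr6:67422932-67491855, minus strand, 66.4 kb), had 164 UMIs in 52 of 183 GOF T cells and none in 95 WT T cells. It was at least 16.7-fold higher in GOF against 3 counts over the WT group (adjusted p = 6.28e-09). After thinning to 1000 UMIs it was detected in 18.7% of GOF T cells (interval 13.3 to 25.1%), against 0 of 50, 21 and 9 WT T cells, where a count of 0 allows up to 6%, 14.3% and 33.3%. Zbtb16, the transcription factor of innate-like T cells (177 kb), had 75 UMIs in GOF and none in WT, at least 7.64-fold higher (adjusted p = 0.0176), and was too low to be tested without WT 1. Both Il23r and Zbtb16 passed the filter of the test through GOF alone, so the count of rises in this list was in part set by the filter. Il17a itself (2.42 kb) had 48 UMIs in 9 GOF T cells and none in WT, with 27 UMIs in 1 cell, and was too low to be tested. Rora, a nuclear receptor of type 17 and innate-like cells (721 kb), rose with 750 CPM in GOF, against 70.6, 147 and 174 CPM in WT (log2 fold change 2.88, SE 0.508, adjusted p = 7.19e-07). Rora also stood higher in GOF epithelium, with 331 CPM in GOF, against 34.1, 36.5 and 37.4 CPM in WT.

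Wnt pathway genes were examined because the genotype acts on beta-catenin. Of 16 listed genes 6 were tested, 3 rose and none fell, with a median intron length of 95.5 kb and a median log2 fold change of 0.87. Over all genes 16.7% rose, but 32.9% at 50 to 100 kb and 66.0% above, so the count of 3 of 6 is near the share at such lengths. Lef1 was one of these. Znrf3, a Wnt-induced ubiquitin ligase that removes Wnt receptors (161 kb), had 84 UMIs in GOF T cells, against 1, 1 and 0 UMIs in WT T cells, a ratio of 12.8 (exact counting interval 3.44 to 108), and was too low to be tested without WT 1, as was Bach2 above. Ccnd3 rose with 552 CPM in GOF, against 265, 318 and 58.0 CPM in WT (adjusted p = 0.0391), and was lost without WT 2 (adjusted p = 0.184) or WT 3 (adjusted p = 0.170). Tcf7, the main Tcf factor of T cells (28.0 kb), had 176 CPM in GOF, against 141, 97.7 and 174 CPM in WT (log2 fold change 0.48, SE 0.548, adjusted p = 0.602). Tcf7 was thus close to the highest WT library.

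Part of the genes of energy metabolism fell. All 22 genes of oxidative phosphorylation were tested, 6 fell (3.70% of all genes fell, and 10% of those with at most 5 kb of intron) and none rose, and 20 of the 22 had a GOF level below every WT library, against 27.1% of all tested genes. Their median log2 fold change was -0.87 and their median intron length 4.16 kb, so the list lies in the class of genes whose median was below 0. Ndufc1, a subunit of complex I, had 109 CPM in GOF, against 362, 611 and 638 CPM in WT (log2 fold change -2.11, SE 0.532, adjusted p = 0.000955), and was lost without WT 2 (adjusted p = 0.0643). Atp5k, a subunit of ATP synthase, had 85.5 CPM in GOF, against 591, 831 and 290 CPM in WT (log2 fold change -2.72, SE 0.554, adjusted p = 2.35e-05). Atp5k also fell in epithelium (adjusted p = 0.00302), where it had 141 CPM in GOF, against 751, 739 and 688 CPM in WT. The 22 genes together summed to 7021 CPM in GOF T cells, against 14305, 14290 and 14794 CPM in WT T cells. In epithelium too their sum was below every WT library, with 10146 CPM in GOF, against 16916, 16672 and 15940 CPM in WT, so the lower level was not particular to T cells. The calls of Ndufa1, Ndufa4, Atp5e and Uqcr11 were each lost without WT 2 (adjusted p = 0.0890, 0.206, 0.217 and 0.170). Ndufa1 and Uqcr11 were also lost without WT 1 (adjusted p = 0.0580 for Ndufa1 and 0.468 for Uqcr11). Of 9 tested glycolysis genes Eno1 fell, with 90.8 CPM in GOF, against 538, 831 and 754 CPM in WT (adjusted p = 1.67e-05). A near-identical copy, Eno1b, is in both gene references, so the Eno1 value is uncertain. Among cells with at most 10% mitochondrial UMIs none of these 7 genes was called, at log2 fold changes of -2.50 for Atp5k (adjusted p = 0.0516) and Eno1 (adjusted p = 0.0694) to -1.16 for Atp5e (adjusted p = 0.736).

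No gene of the interferon, MHC class I, effector cytokine and replication lists was called by edgeR. None of 5 tested interferon response genes of 23, none of 12 tested MHC class I genes of 14 and none of 3 tested effector cytokine genes of 17 was called by edgeR or DESeq2 or had an unadjusted edgeR p under 0.05, and limma-voom called 1 MHC class I gene. No mitosis gene of 15 had enough UMIs to be tested, and 2 or more mitosis genes were seen in 2.75% of GOF T cells at 1000 UMIs, against 4%, 0% and 0% of WT T cells. Of 2 tested replication genes none was called by edgeR, DESeq2 or limma-voom or had an unadjusted p under 0.05, and of 7 tested heat shock genes Hsp90aa1 rose, a call lost without WT 2 (adjusted p = 0.254) or WT 3 (adjusted p = 0.105). Gadd45b, a stress-induced gene (0.543 kb), had 256 CPM in GOF, against 35.3, 48.9 and 0 CPM in WT (adjusted p = 0.000196), and was lost without WT 1 (adjusted p = 0.189). Of 6 tested helper transcription factors Zbtb16 and Rora rose, against 16.7% rises over all genes and 66.0% above 100 kb of intron, where both lie. Of 8 tested apoptosis and survival genes Tnfaip3 and Gadd45b rose, a count near the 16.7% over all genes. None of 6 tested epithelial genes and none of 4 tested macrophage genes was called by edgeR, DESeq2 or limma-voom, and 1 macrophage gene had an unadjusted edgeR p under 0.05. All 4 tested stromal genes (Dcn, Col3a1, Col1a2 and Gsn) rose, but 125 of the 143 GOF Dcn UMIs came from 1 cell. Without that cell none of the 4 had enough UMIs to be tested. The fall of the pancreatic genes Prss2 (0 UMIs in GOF T cells, against 13, 1 and 11 in WT, at least 27.3-fold lower) and Ctrb1 went with the summed pancreatic level given above. Without WT 3 Ctrb1 was lost (adjusted p = 0.0584) and Prss2 was too low to be tested, as it was without WT 1.

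The 12 genes that the naming rule gave as rises had no WT UMI in T cells, so they passed the filter of the test through GOF alone. The rule leaves out sex-linked genes, and so Xist, the RNA of X inactivation (4.94 kb), which also rose. Xist had 200 UMIs in GOF T cells and none in WT T cells, at least 20.4-fold higher (log2 fold change 9.05, adjusted p = 2.26e-10), and was called among short-intron genes too (adjusted p = 0.00401). St6galnac3, a sialyltransferase (518 kb), had 467 UMIs in GOF T cells and was at least 47.6-fold higher. Camk1d, a calcium-dependent kinase (414 kb), had 459 UMIs and was at least 46.8-fold higher. Others were Tex2, Gphn, Airn, Gab3, Raet1e, Frmd5, Atp6v0c and Hdac8, with 89 to 169 UMIs in GOF T cells, besides Il23r. Airn, Gab3, Raet1e, Frmd5, Atp6v0c and Hdac8 were too low to be tested without WT 1. Of the rises named by the rule all given here but Atp6v0c have over 50 kb of intron. Atp6v0c, a proton pump subunit with 2.45 kb of intron, had 91 UMIs in GOF T cells, and in epithelium it had 244 CPM in GOF, against 0.675, 1.83 and 2.21 CPM in WT. In epithelium Camk1d had 286 CPM in GOF, against 7.06, 3.85 and 3.23 CPM in WT, while St6galnac3 stayed at 0.579 CPM in GOF, against 0.0281, 0.275 and 0 CPM in WT.

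Large falls besides the pancreatic genes were of genes that fell in epithelium too. Gstp1, a detoxifying enzyme (1.03 kb), had 16.0 CPM in GOF T cells, against 185, 415 and 522 CPM in WT T cells, and 36.7 CPM in GOF epithelium, against 667, 1429 and 1416 CPM in WT epithelium. Gstp1 has near-identical copies elsewhere in the genome, so its count is uncertain. Spink4, Polr2l, Usp50, Hypk, Rbm4b and Sec61g were other large falls, with log2 fold changes of -3.78 for Spink4 to -2.46 for Sec61g. Polr2l and Rbm4b were lost without WT 1 (adjusted p = 0.481 for Polr2l and 0.349 for Rbm4b), and Usp50 was then too low to be tested. Among cells with at most 10% mitochondrial UMIs the fold changes were -2.44 for Spink4 (adjusted p = 0.144) and -2.24 for Sec61g (adjusted p = 0.335), neither of them called.

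To see which changes were larger or smaller in T cells than in epithelium of the same libraries, the difference between the GOF effects was tested with library as a block. Of 2108 genes, 29 had a higher T cell effect (1.38%) and 15 a lower one (0.712%). The split depended on scaling: without TMM normalization it was 16 higher and 22 lower, with the median difference over all genes at -0.24 rather than -0.05. DESeq2 called 1 gene higher and 3 lower.

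Of the 15 genes with a lower T cell effect, 13 had a positive fold change in epithelium, and 3 were themselves called lower in T cells. H2-Q7, an MHC class I gene (0.354 kb), had 522 CPM in GOF T cells, against 556, 318 and 348 CPM in WT T cells, while epithelium had 30.5 CPM in GOF, against 0.929, 0.826 and 1.53 CPM in WT. The T cell effect was lower by 4.52 on the log2 scale (SE 0.597, adjusted p = 4.86e-11). The H2-Q genes are near-identical copies, so this value is uncertain. Ifi27l2a, an interferon-induced gene (1.05 kb), had 346 CPM in GOF T cells, against 476, 318 and 232 CPM in WT T cells, and 149 CPM in GOF epithelium, against 15.0, 13.4 and 12.7 CPM in WT epithelium (difference -3.34, SE 0.567, adjusted p = 1.24e-06). Psmb8, a subunit of the immunoproteasome that cuts peptides for MHC class I (0.353 kb), had 561 CPM in GOF T cells, against 926, 904 and 870 CPM in WT T cells, and 152 CPM in GOF epithelium, against 58.4, 63.3 and 38.6 CPM in WT epithelium (difference -1.99, SE 0.434, adjusted p = 0.000791), a call lost without WT 2 (adjusted p = 0.160). These antigen presentation and interferon genes were therefore higher in GOF epithelium and not called in GOF T cells.

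Klf2, a factor that keeps T cells quiescent and able to leave tissue (0.777 kb), had 342 CPM in GOF T cells, against 944, 831 and 464 CPM in WT T cells (log2 fold change -1.10, adjusted p = 0.123). In epithelium it had 93.0 CPM in GOF, against 10.5, 23.1 and 19.2 CPM in WT, and the difference was -3.58 (SE 0.505, adjusted p = 1.12e-09). Klf2 was thus below every WT library in T cells and above every one in epithelium.

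Among genes with a higher T cell effect, 19 of 29 have over 50 kb of intron and 23 were called in T cells. Tnfaip3 was one of the shorter ones, with a difference of 4.83 (SE 1.07, adjusted p = 0.000970) that was lost without WT 1 (adjusted p = 0.230) or WT 2 (adjusted p = 0.0584). Itgav, the alpha-V integrin chain (71.8 kb), had 229 UMIs in GOF T cells and 1 UMI over all WT T cells, a ratio of 70.0 (exact counting interval 12.4 to 2776). In epithelium it had 74.8 CPM in GOF, against 74.8, 56.0 and 19.5 CPM in WT (difference 6.01, SE 1.01, adjusted p = 1.18e-06), and the call was lost without WT 1 (adjusted p = 0.0560). Camk4, a calcium-dependent kinase of T cells (253 kb), had 593 CPM in GOF T cells, against 61.7, 0 and 0 CPM in WT T cells, and under 2 CPM in epithelium of every library (difference 5.07, SE 0.852, adjusted p = 1.18e-06).

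**Figure D4:**
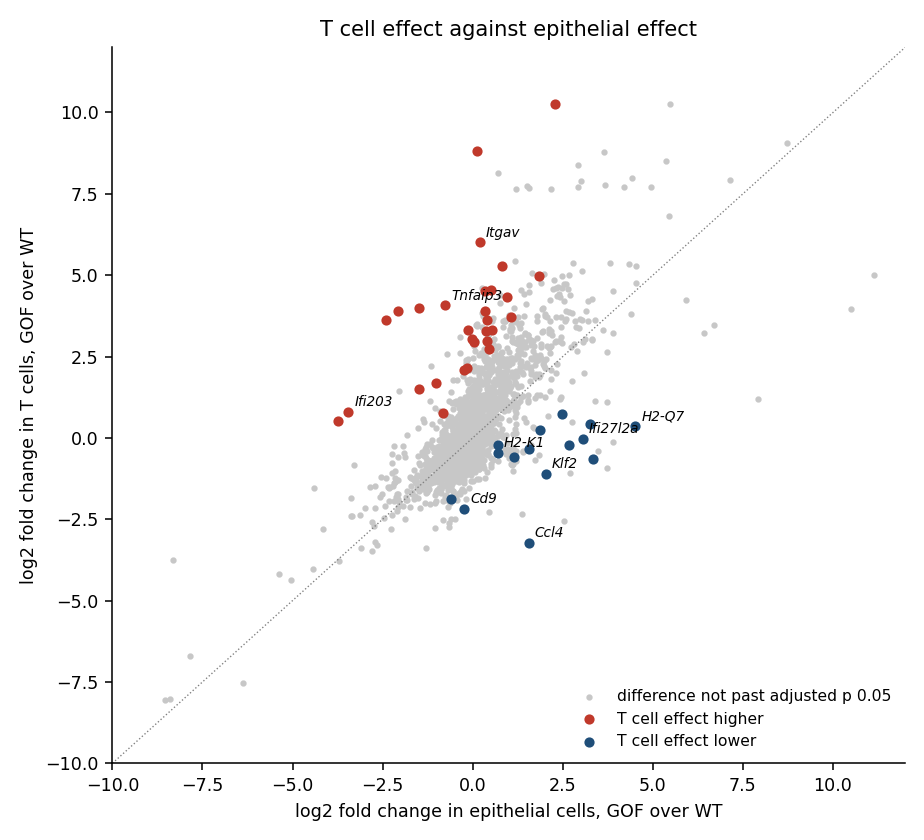
Log2 fold change of GOF over WT in epithelial cells (x axis) and in T cells (y axis) for the genes tested in both. Coloured points differ between the cell types at adjusted p under 0.05, red where the T cell effect is higher and blue where it is lower. The dotted line marks equal effects. Tnfaip3 lies at 4.07 in T cells and -0.76 in epithelium, and H2-Q7 at 0.36 in T cells and 4.51 in epithelium.

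Only the GOF library had at least 20 T cells in each subset, so the make-up of the T cells is described there alone, without a test. The CD8 gate (Cd8a or Cd8b1, no Cd4 or Trdc) held 30 cells, the CD4 gate (Cd4 without the others) 32 cells, and 21 cells had Trdc. Foxp3 was found in 20 cells, 6 of them also in the CD4 gate, so the values of the CD4 gate and of the Foxp3 cells are not independent. Median depth was close, at 2756 UMIs in the CD8 gate, 2903 in the CD4 gate, 2571 in Trdc cells and 2912.5 in Foxp3 cells. The ratios use summed UMIs, in which cells with many UMIs weigh more. These sums were 85375 UMIs in the CD8 gate, 119905 in the CD4 gate, 65980 in Trdc cells and 86006 in Foxp3 cells. Intervals on the ratios below cover counting error only, and the genes were ranked on these same counts.

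Cells of the CD8 gate carried effector transcripts. Ccl5 had 503 UMIs in the CD8 gate and 58 in the CD4 gate, a ratio of 12.2 per UMI captured (interval 9.27 to 16.3). Nkg7 was 3.56 times as high (2.63 to 4.85), and Ccl4 and the protease gene Ctsw were 7.22 times (3.17 to 19.2) and 6.02 times (2.59 to 16.2) as high. In the CD4 gate, Tnfrsf4, the co-stimulatory receptor OX40, had 89 UMIs against none in the CD8 gate. Ctla4 had 236 UMIs in the CD4 gate and 28 in the CD8 gate, and Ccr9, a receptor for homing to the gut, had 33 UMIs in the CD4 gate and 1 in the CD8 gate. Of the 48 Il17a UMIs in the library, 40 came from 2 cells of the CD4 gate.

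Trdc cells resembled each other in receptor and type 17 genes. A gamma constant gene was found in 16 of the 21 cells, and 16 had no Trac. Cd163l1, a scavenger receptor known from IL-17-producing gamma-delta T cells, had 76 UMIs in Trdc cells and 6 in the other 162 T cells, a ratio of 95.1 (41.7 to 267). Tcrg-C1, a gamma constant segment, was 9.31 times as high (5.32 to 16.4) and Il23r 2.93 times (2.04 to 4.15). Il23r was seen in 15 of the 21 Trdc cells and Il17a in 3. Among the WT libraries, WT 1 had 7 Trdc cells, 5 of them with Cd163l1 and none with Il23r.

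Foxp3 cells carried the genes known from regulatory T cells. Of 20 cells, 19 had Ctla4, 18 had Ikzf2 and 12 had Il2ra, while 6 had Cd4 and none had Cd8a or Cd8b1. Itgb8, an integrin chain that activates TGF-beta, was 24.9 times as high as in the other GOF T cells (10.1 to 73.7). Tnfrsf4, Tnfrsf9 and Tnfrsf18, co-stimulatory receptors of the TNF family, were 10.9 (7.85 to 15.2), 6.50 (4.65 to 9.12) and 5.89 times (4.25 to 8.17) as high. Cd40lg, the helper signal to B cells, had no UMI in Foxp3 cells and was found in 8 of 32 cells of the CD4 gate and 6 of 30 of the CD8 gate.

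**Figure D5:**
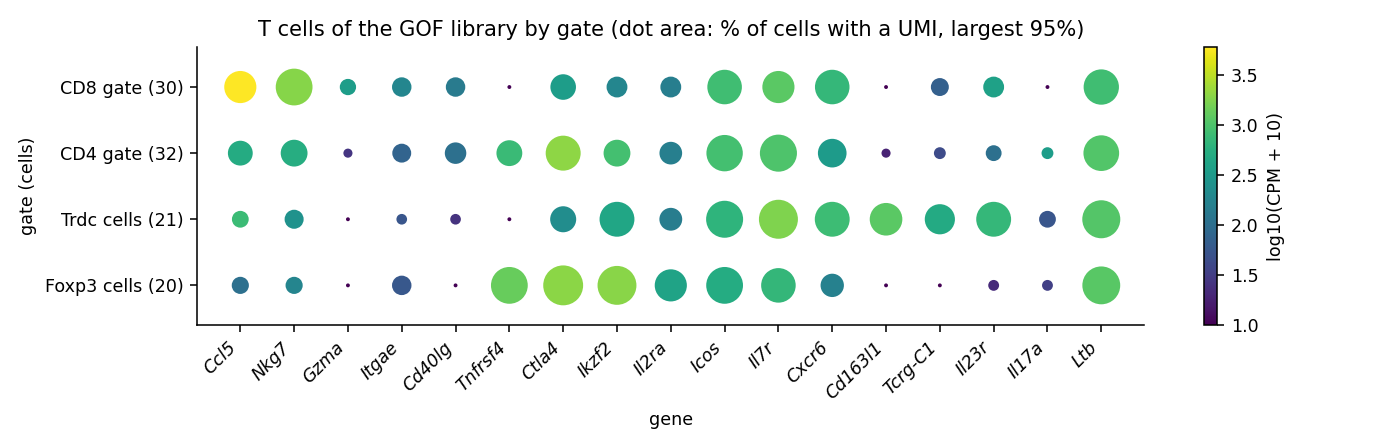
T cells of the GOF library by gate, with the number of cells in parentheses. Dot area is the percentage of cells with a UMI (largest 95%) and colour is the level as log10(CPM + 10). Ccl5 and Nkg7 are highest in the CD8 gate, Ikzf2 and Tnfrsf4 in Foxp3 cells, and Cd163l1, Tcrg-C1 and Il23r in Trdc cells, whereas Icos, Il7r and Ltb are found in every gate. Ctla4 has a like level in the CD4 gate (1968 CPM) and in Foxp3 cells (1953 CPM).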

How the data were processed

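Single cells of mouse common bile duct were measured with 10x 3′ v3 chemistry in 1 GOF and 3 WT libraries. The deposited values are UMI counts per gene and cell, made with Cell Ranger 7.1 and the mm10 genome per the submitters' processing notes. The file headers name Cell Ranger 7.0.0 for GOF and 3.0.2 for WT, with 32285 and 31053 genes, and the 30406 genes in both were used. Whether either run counted intronic reads is not given in the sources used here. Gene positions and intron lengths were taken from GENCODE M21 (GRCm38), in which 100% of these genes matched.

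Cells were kept and classed as stated in the report. Epithelial cells had at least 4 Epcam UMIs and no Cd3, Cd79a or Csf1r UMI, and NK cells at least 2 of 5 NK genes without Cd3. UMIs were summed per library and class, and GOF was compared with WT by edgeR 4.0.16 (quasi-likelihood test, filterByExpr, TMM, adjusted p under 0.05) in R 4.3.3. A standard error is the fold change divided by the square root of F. The test had 2 residual degrees of freedom, all from WT libraries, and the lone GOF library is assumed to vary like them. DESeq2 1.42.0, limma-voom (limma 3.58.1), other scalings and filters, and leaving out each WT library were alternatives. Shares have exact Clopper-Pearson intervals, except that the share a count of 0 is said to allow is 3 counts over the number of cells. The exact upper limits are somewhat higher, for Il23r at 1000 UMIs 7.11%, 16.1% and 33.6% in WT 1, WT 2 and WT 3. A fold against a group at 0 is a lower bound against 3 counts over the group. Doublets were scored with Scrublet (scanpy 1.11.5), and 4 GOF, 1 WT 1 and no other T cells were marked and left in.

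T cell totals were 561442 UMIs in GOF and 17237 to 113388 UMIs in WT, so levels of 1 UMI weigh most in WT 3. The members, the 29 gene lists and the tests were chosen with earlier results of these data known. Genes named were those of the cell rule with Ctnnb1 and Prom1, the 12 largest rises and falls of at least 20 CPM outside the WT range (sex-linked, ribosomal, mitochondrial, immunoglobulin and predicted genes left out), up to 4 called members of each list, and the 8 largest differences from epithelium in each direction. Other genes named (Icos, Fyb, Ptpn22, Cd5, Il7r, Satb1, Junb, Lck, Lat, Cd247, Tcf7, Axin2, Gzma, Foxp3, Il17a, Psmb8, Atp5e, Uqcr11 and the subset genes) were chosen after their values were seen. Some genes that the rules select are not reported here. The comparison with epithelium was added after the data were seen, as B cells were too few.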

Additional observations from a re-analysis of the deposited data

Results flagged for a closer look

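The GOF effect differed between T cells and epithelial cells for 16 named genes by the test of the difference itself (edgeR, adjusted over 2108 genes). The T cell effect was lower for H2-Q7 (adjusted p = 4.86e-11), Ccl4 (1.85e-11), Klf2 (1.12e-09), Ifi27l2a (1.24e-06), Evl (0.00423), Cd9 (0.00582), Itgb7 (0.0195) and Sp100 (0.0437). Evl, a regulator of actin filaments, had 123 CPM in GOF T cells, against 220, 195 and 174 CPM in WT T cells, and 46.0 CPM in GOF epithelium, against 3.88, 4.95 and 1.19 CPM in WT epithelium. Itgb7, an integrin chain of gut-homing lymphocytes, had 280 CPM in GOF T cells, against 423, 293 and 232 CPM in WT T cells, and 3.19 CPM in GOF epithelium, against 0.197, 0.367 and 0.850 CPM in WT epithelium. Sp100, an interferon-induced nuclear protein, had 267 CPM in GOF T cells, against 265, 147 and 174 CPM in WT T cells, and 22.3 CPM in GOF epithelium, against 1.46, 2.48 and 1.53 CPM in WT epithelium. Cd9 had 21 UMIs in GOF T cells, against 27, 7 and 0 UMIs in WT T cells. Without WT 1 the difference was lost for Ccl4, Evl, Cd9, Itgb7 and Sp100 (adjusted p = 0.201 for Evl to 0.980 for Ccl4).

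The T cell effect was higher for Itgav (adjusted p = 1.18e-06), Camk4 (1.18e-06), Ifi203 (6.73e-05), Tnfaip3 (0.00097), Tex2 (0.00283), Rnf125 (0.00871), Ramp3 (0.0114) and St6galnac3 (0.047). Ifi203, an interferon-induced gene with near-identical relatives whose value is therefore uncertain, had 226 CPM in GOF T cells, against 185, 0 and 232 CPM in WT T cells, and 4.05 CPM in GOF epithelium, against 54.9, 27.1 and 19.2 CPM in WT epithelium. Tex2 had 169 UMIs in GOF T cells and none in WT T cells, and 18.4 CPM in GOF epithelium, against 14.5, 11.2 and 12.7 CPM in WT epithelium. Rnf125, a ubiquitin ligase, had 145 UMIs in GOF T cells, against 2, 0 and 1 UMIs in WT T cells. Ramp3, a co-receptor of adrenomedullin signalling, had 76 UMIs in GOF T cells, against 2, 0 and 0 UMIs in WT T cells, and was not called in T cells alone (adjusted p = 0.0656). Without WT 1 the difference was lost for Itgav, Ifi203, Tnfaip3, Tex2, Rnf125, Ramp3 and St6galnac3 (adjusted p = 0.0560 for Itgav to 0.308 for Tex2). Without WT 2 it was lost for Evl, Cd9, Itgb7 and Sp100 (adjusted p = 0.0563 for Evl to 0.311 for Cd9) and for Tnfaip3, Tex2, Rnf125, Ramp3 and St6galnac3 (adjusted p = 0.0584 for Tnfaip3 and Tex2 to 1 for St6galnac3). Of the 44 genes called in either direction, 4 were also called by DESeq2.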

How the results depend on the processing

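The count of changed genes in T cells was 429 and ranged from 198 to 607 when 1 WT library was left out. It was 39 by DESeq2, 263 under a stricter T cell rule, 280 with at most 10% mitochondrial UMIs and 35 in the fit on short-intron genes. It was 442 without a filter on low counts, 437 without Scrublet-marked cells, 456 without GOF T cells over 10000 UMIs and 437 without the GOF T cell richest in Dcn (the last pair chosen after seeing the data). Of the 351 rises, 85 were called without each WT library in turn, as were 9 of the 78 falls. The count of differences from epithelium was 44, and 14 to 89 with 1 WT library left out, and 4 by DESeq2. The count of changed genes in T cells was 639 by limma-voom, with 449 rises and 190 falls. No called gene named here changed sign in T cells under these settings. The following log2 fold changes, of genes that were not called, did change sign, and each is given first as in the report's test. Trbc1 was -0.26 and 0.20 with at most 10% mitochondrial UMIs, 0.12 in the short-intron fit and -0.51 to 0.30 with 1 WT library left out. Ltb was -0.023 and 0.085 by DESeq2, 0.018 by limma-voom, 0.081 with DESeq2 size factors, 0.026 without TMM, 0.18 without a filter on low counts, 0.28 under a stricter T cell rule, 0.36 with at most 10% mitochondrial UMIs, 0.34 in the short-intron fit, 0.056 without GOF cells over 10000 UMIs and -0.32 to 0.29 with 1 WT library left out. Cxcr6 was 0.14 and -0.020 under a stricter T cell rule, -0.10 with at most 10% mitochondrial UMIs and -0.048 to 0.36 with 1 WT library left out. Ly6a was -0.34 and 0.035 in the short-intron fit. Ifi27l2a was -0.034 and 0.15 by DESeq2, 0.076 with DESeq2 size factors, 0.030 without TMM, 0.17 without a filter on low counts, 0.016 under a stricter T cell rule, 0.30 with at most 10% mitochondrial UMIs, 0.36 in the short-intron fit and -0.23 to 0.37 with 1 WT library left out. Dut was 0.049 and -0.035 by limma-voom, -0.032 with at most 10% mitochondrial UMIs, -0.45 without GOF cells over 10000 UMIs and -0.15 to 0.049 with 1 WT library left out. Slbp was -0.058 and 0.086 by limma-voom, 0.066 with DESeq2 size factors, 0.024 without TMM and 0.086 without a filter on low counts. B2m was -0.21 and 0.022 under a stricter T cell rule, 0.057 with at most 10% mitochondrial UMIs and 0.15 in the short-intron fit. Clu was -0.76 and 0.13 by limma-voom, 0.65 under a stricter T cell rule, 0.61 with at most 10% mitochondrial UMIs and -1.39 to 0.73 with 1 WT library left out. Spp1 was -0.72 and 1.39 by limma-voom, 0.87 under a stricter T cell rule, 1.51 with at most 10% mitochondrial UMIs and -1.54 to 2.17 with 1 WT library left out. Cst3 was -0.41 and 0.14 with at most 10% mitochondrial UMIs and -0.81 to 0.052 with 1 WT library left out. Apoe was 0.92, and -0.42 to 3.05 with 1 WT library left out.

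The T cell share in GOF minus the WT mean was 0.809 percentage points, 0.249 with at most 10% mitochondrial UMIs and 1.21 among cells with at most 3 Epcam UMIs. For Cd8a or Cd8b1 the difference was -2.38 points, but 3.57 without thinning and -8.08 under the stricter T cell rule. For Cd4 it was 2.46 points and 12.6 without thinning. For Trdc it was 0.538 points and -2.31 under the stricter T cell rule. The cause was not tested.

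No paired analysis was possible because the GOF group is 1 library. In the comparison with epithelium, library served as a replicate block, and without the block 3 genes were called. The planned comparisons with B cells and of CD8 with CD4 cells were not run, since WT 2 and WT 3 held 17 and 14 B cells and no WT library held 20 cells in either gate. Depth limits WT 3 most, with 16 T cells.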

Other observations

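X-linked and Y-linked transcripts were both present among the GOF T cells. Xist was found in 61 of 183 GOF T cells and in none of the 95 WT T cells, while a Y-linked gene was found in 75 GOF T cells, against 11, 7 and 1 WT T cells. Both were found in 9 GOF T cells. The GOF library thus held T cells with either kind of transcript, and the labels give no sex or number of animals for it.

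Receptor chains were co-detected within cells. Trbc1 and Trbc2 were both detected in 72 GOF T cells, against 21, 7 and 3 WT T cells, and Trbc1 alone in 9 GOF T cells.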
